A study of Mus musculus with 189 samples.

Results

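Kdm5a, Kdm5b and Kdm5c encode histone demethylases of the KDM5 (JARID1) family, and were followed through a single-cell quantitative PCR study of mouse preimplantation development. They are 3 of the 156 genes whose assays were retained out of 192, and were taken by name, by a rule that holds no measured value. The Y-linked Kdm5d was retained too and is described apart, since it was undetected in most samples. The samples were 11 MII oocytes, 14 zygotes, 21 samples from 2-cell embryos, 7 from 3-cell, 12 from 4-cell, 27 from 8-cell, 26 from 16-cell and 50 from 32-cell embryos. All came from superovulated F1 females (C57BL/6 x DBA/2). The embryos came from matings of such females with C57BL6 males. No sample carried a mutation or received a drug, and the samples were grouped by stage. Mating, culture, separation of cells and the number of cells in a sample were not the same at every stage. Culture was in KSOMaa at low oxygen, and cells were separated with trypsin once the zona pellucida was off. By its label a sample was 1 cell or a small group of blastomeres of an embryo. For 3 embryos at each of the 2-cell, 4-cell and 8-cell stages it was the whole embryo. The sex of the embryos is not given in the labels.

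KDM5 enzymes belong to the JmjC class of oxygenases and remove methyl groups from di- and trimethylated lysine 4 of histone H3 (H3K4me2 and H3K4me3). H3K4me3 marks active promoters, and in the mouse oocyte it also covers broad domains away from promoters that are lost as the embryonic genome is activated at the 2-cell stage. Kdm5a was first known as a binding partner of the retinoblastoma protein, Kdm5b as a repressor that is abundant in testis and in several cancers, and Kdm5c as an X-linked gene that escapes X inactivation and whose mutations cause intellectual disability in humans.

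Levels are given as normalized log2 values. The cycle threshold (Ct), which falls as the amount of transcript rises, was subtracted from 30, and the result was taken less the average of that quantity for the control genes Hnrnpr, Ssu72 and Ube2e1 of the sample. A difference of 1 is then a 2-fold change if each cycle doubles the product. Assays differ in efficiency, so levels are compared between stages for each gene and not between genes. Blastomere samples of an embryo share their source and were averaged, which gave 58 oocytes, zygotes and embryos as replicates (11 MII oocytes, 14 zygotes, and 8, 3, 6, 7, 2 and 7 embryos of the later stages in order). Of the 2-cell blastomeres, 11 have no embryo named in the labels, and they were averaged as 1. Since a 2-cell embryo has 2 cells, these 11 came from several embryos. Their mean is counted among the 8 embryo means of that stage, though it is not that of 1 embryo. Tests are limma's moderated tests over all 156 genes, two-sided, with Benjamini-Hochberg adjustment and a threshold of 0.05. Where groups are said not to overlap, this describes the members alone. The share of all genes that separate in the same way was not counted, so no separation is read as particular to the members. The labels do not name collection days, so p-values measure the spread between these samples, which may be technical in part.

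The stages were checked against marker genes. Dazl, a germ cell RNA-binding protein, was detected in 11 of 11 oocytes and 14 of 14 zygotes but in 1 of 26 samples of the 16-cell stage and 8 of 50 of the 32-cell stage. The pluripotency factor Nanog was detected in 0 of 11 oocytes, 26 of 26 samples of the 16-cell stage and 50 of 50 of the 32-cell stage. The other markers did not separate the stages in this way by detection. Maternal ZP3 was detected in 11 of 11 oocytes and still in 24 of 26 samples of the 16-cell stage. Sox2 was detected in 11 of 11 oocytes and 8 of 26 samples of the 16-cell stage, and Pou5f1 in every sample. The trophectoderm markers Cdx2, Krt8 and Gata3 were detected in 11 of 11 oocytes, at lower median levels than at the 16-cell stage. The panel holds no markers of the cumulus cells that surround the oocyte. The mean Ct of the control genes had a median of 12.9 in MII oocytes, 13.0 in zygotes, 16.3 in 2-cell, 14.5 in 3-cell, 14.9 in 4-cell, 15.4 in 8-cell, 16.0 in 16-cell and 17.7 in 32-cell samples. Oocytes and zygotes thus gave the most signal and 32-cell samples the least, and the part of this in the results below was not tested beyond the alternatives given.

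In MII oocytes and zygotes, Kdm5a and Kdm5b were at their lowest and Kdm5c was already near its later level. Kdm5a (chr6:120364099-120444574, GRCm38.p6) had a lowest, median and highest value of -8.17, -6.91 and -5.15 over 11 oocytes. Over 14 zygotes its median was -7.26 and its highest value -6.52, with 1 zygote in which it was not detected (-17.65, set by the Ct of 30 given to undetected genes) and a lowest detected value of -9.19. The ranges of oocytes and zygotes overlapped.

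Kdm5b (chr1:134560178-134632878) ranged from -2.97 to -1.69 in oocytes around a median of -1.97, and from -2.78 to -1.05 in zygotes around -2.09. Kdm5c (chrX:152233198-152279102) ranged from 1.62 to 2.18 in oocytes with a median of 1.95, and from 0.94 to 2.18 in zygotes with a median of 1.70. Zygotes and oocytes overlapped for both genes. From MII oocytes to zygotes none of the 3 genes passed the test, in a comparison in which 1.92% of the 156 genes did. The differences were -1.32 ± 0.64 (SE) for Kdm5a (adjusted p = 0.322), 0.20 ± 0.24 for Kdm5b (adjusted p = 0.765) and -0.31 ± 0.17 for Kdm5c (adjusted p = 0.367). Without the zygote that had no Kdm5a signal and the late blastomere that had none, the Kdm5a difference was -0.60 (adjusted p = 0.392).

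**Figure D1:**
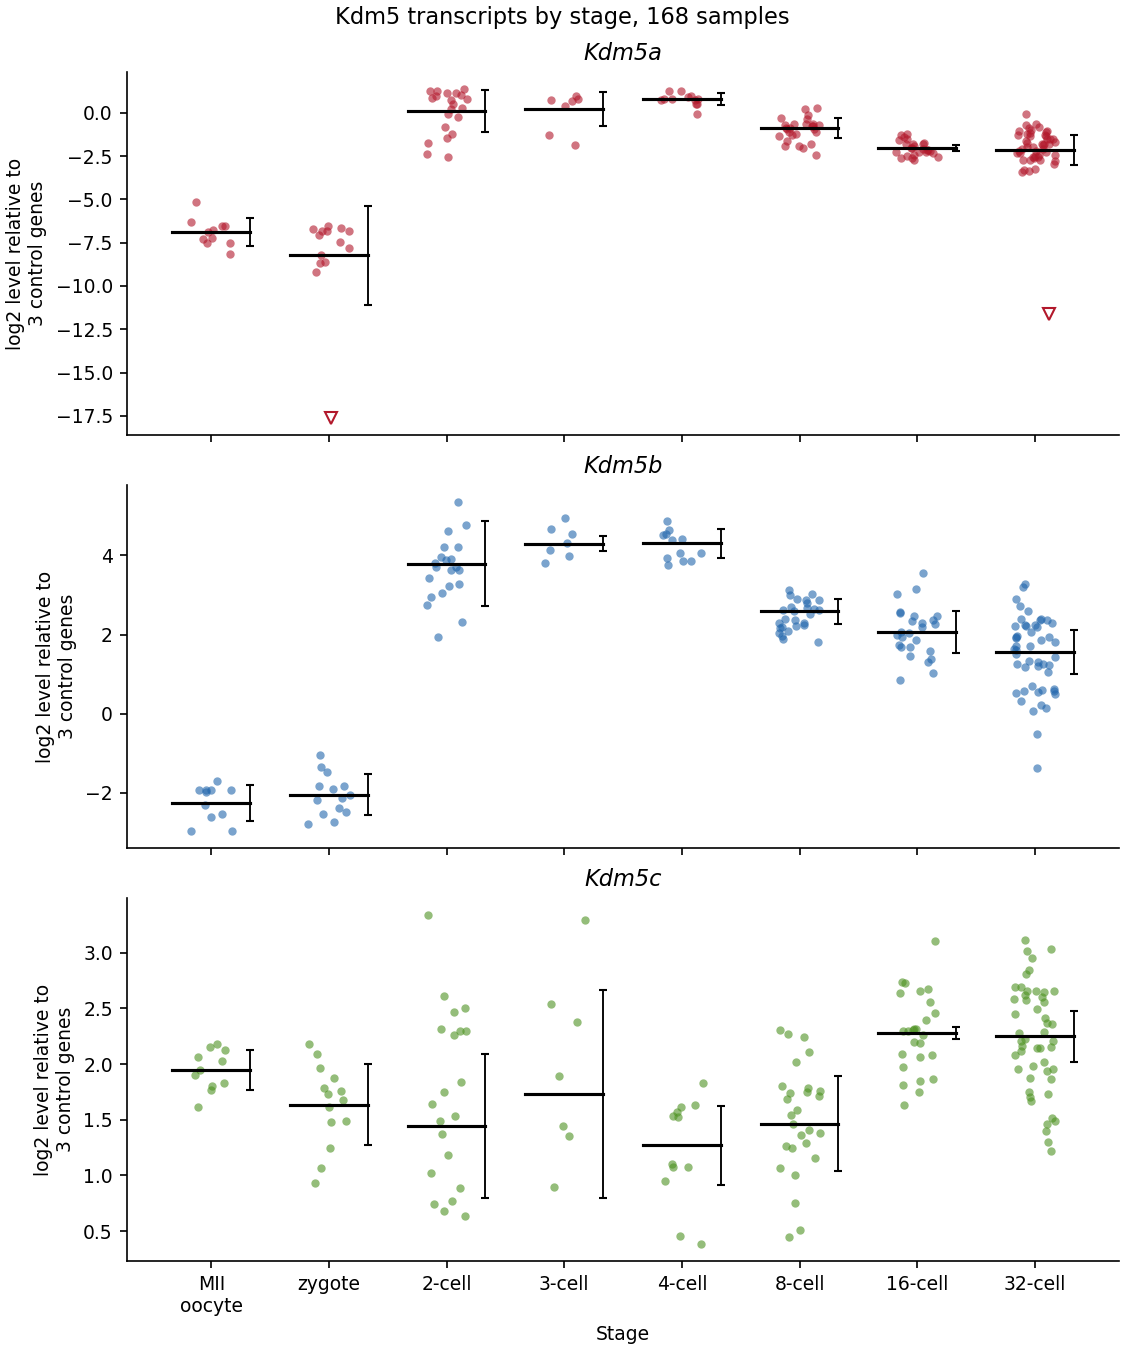
Normalized log2 level of Kdm5a, Kdm5b and Kdm5c (vertical axis) in each of 168 samples by stage (horizontal axis), with the mean and SD over oocytes, zygotes or embryos in black and undetected samples as open triangles. Kdm5a and Kdm5b step up between the zygote and the 2-cell stage and lie lower again from the 8-cell stage on, while Kdm5c stays between 0.38 and 3.34 in every sample.

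Between the zygote and the 2-cell stage Kdm5a and Kdm5b rose steeply and Kdm5c did not change by the test. Over 21 samples of the 2-cell stage, Kdm5a ranged from -2.55 to 1.38 with a median of 0.53. Kdm5b ranged from 1.95 to 5.36 with a median of 3.71. All 8 of the 2-cell embryo means lay above all 14 zygotes for both genes. Of the 3 genes, 2 were called higher, against 29.5% of all genes (68.6% in either direction). By their labels the 2-cell embryos were of 2 kinds. The 5 embryo means from samples labelled as blastomeres, all with an A in their titles, lay between -1.92 and 0.53 for Kdm5a and between 1.95 and 3.60 for Kdm5b. The 3 labelled as whole embryos, none with an A, lay between 0.97 and 1.13 and between 4.61 and 5.36. Some samples labelled as blastomeres have titles that name an embryo and no blastomere, so their number of cells is not known. The labelled kinds did not overlap, and the labelled kind and the series of titles cannot be told apart.

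The mean of Kdm5a went from -8.22 ± 2.85 (SD, n = 14) to 0.08 ± 1.22 (SD, n = 8), a rise of 8.30 ± 0.71 (SE, adjusted p = 3.74e-15, limma). The undetected zygote widened this SD. Without it and the undetected late blastomere the rise was 7.58 ± 0.36 (adjusted p = 5.10e-25), or 191-fold with a 95% interval of 116-fold to 315-fold if each cycle doubled the product. The mean of Kdm5b went from -2.05 ± 0.52 (SD, n = 14) to 3.80 ± 1.08 (SD, n = 8). This rise of 5.85 ± 0.26 (SE, adjusted p = 2.17e-26) corresponds to 57.6-fold, with an interval of 40.05-fold to 82.7-fold. With samples labelled as whole embryos left out at every stage the rises were 7.72 for Kdm5a (adjusted p = 3.97e-10) and 5.17 for Kdm5b (adjusted p = 4.53e-21). With these alone at the 2-cell stage they were 9.27 (adjusted p = 9.06e-11) and 6.97 (adjusted p = 1.69e-25). An exact permutation test gave p = 6.25e-06 for each gene alone, the smallest that 8 embryos against 14 zygotes allow.

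Kdm5c ranged from 0.63 to 3.34 over the 21 samples of the 2-cell stage around a median of 1.64, across the whole range of the zygotes. Its difference from zygotes was -0.19 ± 0.19 (SE, adjusted p = 0.363), with a 95% interval of -0.57 to 0.19, and the rises of its relatives lay outside this interval. The difference passed the test after leaving out the control gene Ube2e1 (-0.70, adjusted p = 0.00195) and in the authors' deposited normalized table (-0.64, adjusted p = 0.00405). That table is scaled to Gapdh, Hspa8 and Lmnb1, and not to the control genes that the study's methods name. A fall of Kdm5c at this step thus depended on the control genes.

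The promoter stretches of Kdm5b and Kdm5c are shown because these 2 genes went different ways at the 2-cell stage. They are the RefSeq promoter windows in GRCm38.p6 up to the gene start, 250 and 221 bases long, both on the plus strand, at chr1:134559928-134560177 for Kdm5b and chrX:152232977-152233197 for Kdm5c. Capitals mark a GC box (GGGCGG) in Kdm5b and a CCAAT box in Kdm5c, as a search of both strands found them.

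Kdm5b: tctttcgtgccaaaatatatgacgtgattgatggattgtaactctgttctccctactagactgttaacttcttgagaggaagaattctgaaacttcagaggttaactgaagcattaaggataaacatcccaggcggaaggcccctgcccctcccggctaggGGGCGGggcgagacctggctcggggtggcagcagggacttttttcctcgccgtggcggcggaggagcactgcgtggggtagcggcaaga
Kdm5c: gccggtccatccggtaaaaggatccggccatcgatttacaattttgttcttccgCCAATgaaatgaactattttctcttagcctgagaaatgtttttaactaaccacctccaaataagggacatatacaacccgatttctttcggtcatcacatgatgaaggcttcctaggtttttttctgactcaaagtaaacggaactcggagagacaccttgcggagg

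Over the first 250 bases of 32851 mouse promoter windows, GGGCGG or its reverse complement was present in 32.7% and CCAAT in 33.8%. TATAAA, present in 12.4%, was in neither of the 2 stretches. Over the same 250 bases the share of G and C was 54.4% for Kdm5b and 43.6% for Kdm5c, against a median of 52.4% over all promoters. These matches are descriptions of the letters and were not tested as binding sites.

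Between the 2-cell and 4-cell stages the family stayed on a plateau. Kdm5a had a median of 0.68 at the 3-cell stage (range -1.89 to 0.98 over 7 samples) and of 0.80 at the 4-cell stage (range -0.05 to 1.24 over 12). The 4-cell samples thus lay within the upper part of the 2-cell range. Kdm5b had medians of 4.31 (3.81 to 4.96) and 4.22 (3.76 to 4.88), and Kdm5c of 1.90 (0.89 to 3.30) and 1.31 (0.38 to 1.83).

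None of the 3 genes passed the test between 2-cell and 3-cell embryos (8.97% of all genes did), 3-cell and 4-cell embryos (3.85%) or 2-cell and 4-cell embryos (32.7%). Over the whole of this span the differences were 0.71 for Kdm5a, 0.51 for Kdm5b and -0.17 for Kdm5c. Without the whole embryos Kdm5b did pass, at 1.17 between the 2-cell and 3-cell stages (adjusted p = 0.0168) and at 1.03 between the 2-cell and 4-cell stages (adjusted p = 0.0217), and with whole embryos alone at the 2-cell stage the second was -0.61 (adjusted p = 0.242). The spread between embryos was wide at the 2-cell stage, where the 2 kinds of sample differed. Embryo means of Kdm5a were -1.92 and -1.73 in 2 of the 8 and between 0.23 and 1.13 in the other 6, and those of Kdm5b ran from 1.95 to 5.36. At the 4-cell stage the 6 embryo means lay between 0.23 and 1.24 for Kdm5a and between 3.90 and 4.88 for Kdm5b.

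At the 8-cell stage Kdm5b fell and Kdm5a lay lower in every embryo, while Kdm5c did not move by the test. Over 27 samples Kdm5b ranged from 1.82 to 3.12 with a median of 2.51, and all lay below the lowest of the 12 samples of the 4-cell stage (3.76). Its embryo means were 2.87, 2.63, 3.03, 2.27, 2.65, 2.55 and 2.09, and all 7 lay below all 6 of the 4-cell stage. From 4.30 ± 0.36 (SD, n = 6) to 2.58 ± 0.33 (SD, n = 7), Kdm5b fell by 1.72 ± 0.33 (SE, adjusted p = 1.43e-05), or 3.29-fold. It was the 1 of the 3 genes called, in a comparison in which 49.4% of all genes were called, 35.9% lower, and the median gene moved by -0.51.

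Kdm5a ranged from -2.45 to 0.26 over the 27 samples of the 8-cell stage with a median of -0.91. Its embryo means were -0.90, -1.61, 0.21, -1.38, -0.98, -0.65 and -0.77, and all 7 lay below all 6 of the 4-cell stage, the highest at 0.21 and the lowest of the 4-cell stage at 0.23. The difference of -1.65 ± 0.89 (SE) did not pass limma's test (adjusted p = 0.123), which took its spread from a fit that included the undetected zygote and the undetected late blastomere. Without these 2 samples, which belong to neither stage, the difference was again -1.65, with a smaller SE of 0.44 and an adjusted p of 0.00154. An exact permutation test of the gene alone, with 6 embryos against 7, gave p = 0.00117 for Kdm5a and for Kdm5b.

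Kdm5c at the 8-cell stage ranged from 0.45 to 2.31 around a median of 1.54, and its embryo means were 1.72, 1.29, 1.74, 1.51, 1.68, 1.73 and 0.57. They overlapped with the 4-cell embryos, and the difference was 0.19 (adjusted p = 0.526). Against the 2-cell stage, Kdm5b fell by 1.21 ± 0.30 to the 8-cell stage (SE, adjusted p = 0.000484), where 47.4% of genes were called lower (63.5% in either direction). On that span Kdm5a differed by -0.95 (adjusted p = 0.328, and 0.0408 without the 2 undetected samples) and Kdm5c by 0.02 (adjusted p = 0.938). The difference of Kdm5b between the 2-cell and 8-cell stages depended on the 2-cell samples used. For Kdm5b it was -0.73 without whole embryos (adjusted p = 0.0524) and -2.33 with whole embryos alone at the 2-cell stage (adjusted p = 2.41e-08). From the 4-cell stage Kdm5b was at -1.76 without whole embryos (adjusted p = 0.000164). Both differences of Kdm5b also depended on the scale. Without normalization they were -1.39 from the 4-cell stage (adjusted p = 0.109) and 0.39 from the 2-cell stage (adjusted p = 0.636), and with each sample's median in place of the control genes the second was -0.58 (adjusted p = 0.0681).

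**Figure D2:**
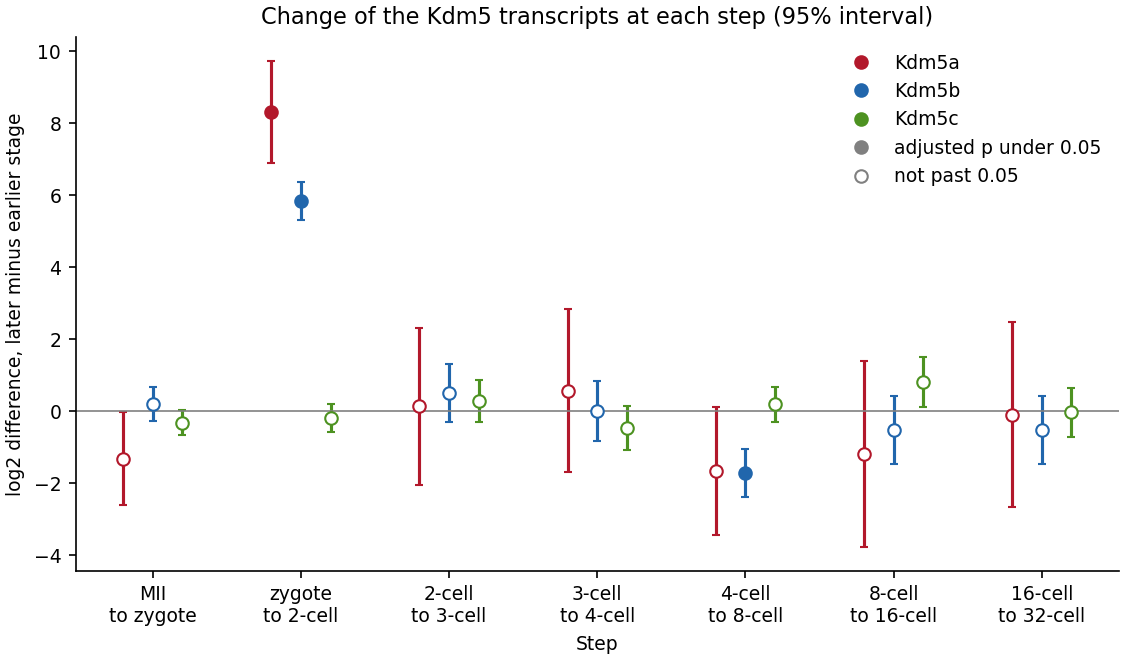
Difference in normalized log2 level (vertical axis, with its 95% interval) for each KDM5 gene at each step between consecutive stages (horizontal axis), filled where the adjusted p was under 0.05. The rises of 8.30 (Kdm5a) and 5.85 (Kdm5b) from the zygote to the 2-cell stage stand apart from all later steps.

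At the 16-cell and 32-cell stages the 3 genes were measured in 26 and 50 blastomere samples. Kdm5a ranged from -2.73 to -1.23 (median -2.11) at the 16-cell stage, and had a median of -1.93 and a highest value of -0.06 at the 32-cell stage, where 1 blastomere gave no signal (-11.62) and the lowest detected value was -3.44. Kdm5b ranged from 0.84 to 3.55 (median 2.06) and from -1.37 to 3.29 (median 1.63). Kdm5c ranged from 1.63 to 3.10 (median 2.30) and from 1.22 to 3.12 (median 2.22).

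Both 16-cell embryos lay below all 7 of the 8-cell stage for Kdm5a (-2.17 and -1.94) and above all 7 for Kdm5c (2.24 and 2.32), and they overlapped for Kdm5b (1.70 and 2.44). None of these steps passed the test, while 28.2% of all genes did. The differences were -1.18 ± 1.28 for Kdm5a (SE, adjusted p = 0.578), -0.51 for Kdm5b (adjusted p = 0.509) and 0.82 ± 0.34 for Kdm5c (adjusted p = 0.0696). An exact permutation test with 2 embryos against 7 cannot go below 0.0556, which it gave for Kdm5a and for Kdm5c. Between the 16-cell and 32-cell stages the differences were -0.09, -0.51 and -0.03 for Kdm5a, Kdm5b and Kdm5c. None passed, against 10.9% of all genes. The whole embryos of these stages, which are other samples and did not enter that comparison, differed more when set to the same control genes. Over 3 and 3 whole embryos Kdm5b went from 2.03 to -0.52, a fall of 2.55 ± 0.40 (SE, adjusted p = 5.78e-06, limma), and Kdm5c from 2.09 to 0.49, a fall of 1.60 ± 0.29 (SE, adjusted p = 3.19e-05), in a comparison in which 41% of genes were called. Kdm5a differed by -0.61 there (adjusted p = 0.788). Whether Kdm5b and Kdm5c fell between these stages thus depended on which samples were compared.

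From the oocyte to the late embryo, Kdm5a and Kdm5b ended higher than they began. The 9 embryos of the 16-cell and 32-cell stages lay above all 11 oocytes for both. The differences were 4.77 ± 0.72 (SE, adjusted p = 3.76e-08) for Kdm5a and 3.92 ± 0.26 (SE, adjusted p = 2.23e-19) for Kdm5b. These 2 of 3 genes compare with 37.8% of all genes called higher and 84.6% called in either direction. Kdm5c differed by 0.31 ± 0.19 (SE, adjusted p = 0.130), and passed in some other settings, from 0.31 when only the groups compared were fitted to 0.79 without the control gene Ssu72.

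This comparison depends on the scale. With the 3 control genes above, the median of all 156 genes moved by -0.35 from oocyte to late embryo. In the deposited table normalized to Gapdh, Hspa8 and Lmnb1, the median gene moved by -3.91. The assays of these control genes are among the 36 that were not retained. The differences there were 1.22 for Kdm5a (adjusted p = 0.109), 0.36 for Kdm5b (adjusted p = 0.201) and -3.25 for Kdm5c (adjusted p = 4.43e-21). Without normalization the median gene moved by -4.65, Kdm5a by 0.48, Kdm5b by -0.38 and Kdm5c by -3.99. A scale shifts all genes of a sample alike, so the place of the members relative to other genes is the same on each by construction.

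Put in order of their mean levels, Kdm5a was highest at the 4-cell stage, followed by the 3-cell, 2-cell, 8-cell, 16-cell and 32-cell stages and then MII oocytes and zygotes. Kdm5b had the same order, with zygotes and oocytes exchanged. Among neighbours in this order, the 3-cell and 4-cell stages did not differ beyond their spread for either gene, nor did the 2-cell and 3-cell stages, the 8-cell and 16-cell stages, the 16-cell and 32-cell stages or oocytes and zygotes. The gap between the 32-cell stage and the oocytes (Kdm5a) or zygotes (Kdm5b) next to it was the widest of the order. The 2-cell and 8-cell stages, also neighbours, differed by the test for Kdm5b and not for Kdm5a. The order for Kdm5c was the 16-cell stage (2.28 ± 0.05, SD, n = 2), the 32-cell stage (2.25 ± 0.23, SD, n = 7), MII oocytes (1.95 ± 0.18, SD, n = 11), the 3-cell stage, zygotes, and the 8-cell, 2-cell and 4-cell stages (1.27 ± 0.35 at the last, SD, n = 6). No pair of neighbours in the order of Kdm5c differed by the test, but stages further apart did. Over all 28 pairs of stages Kdm5c passed in 9, Kdm5a in 14 and Kdm5b in 22, against 54.9% of such tests over all genes. Kdm5c was lower at the 4-cell stage than in MII oocytes by 0.68 (written 4-cell less oocyte, -0.68, adjusted p = 0.00437, 77.6% of genes called) and higher at the 32-cell than at the 4-cell stage by 0.98 (adjusted p = 0.000299, 66% called). It was also lower at the 2-cell (-0.50) and 8-cell stages (-0.48) than in oocytes, higher at the 16-cell than at the 2-cell (0.84) and 4-cell stages (1.01), and higher at the 32-cell stage than in zygotes (0.61) and at the 2-cell (0.81) and 8-cell stages (0.79). These 9 differences depended on the scale. With 1 control gene left out all 9 kept their sign, and 4 (without Hnrnpr) or 7 (without Ssu72, and without Ube2e1) passed. On sample medians 8 kept it and 5 of these passed. In the authors' normalization 3 of 9 kept their sign, those from oocytes, and all 6 that end at the 16-cell or 32-cell stage turned negative, and without normalization 4 of 9 kept it. From the 4-cell to the 32-cell stage Kdm5c rose by 0.58 to 1.49 with 1 control gene left out and by 0.84 on sample medians. It differed by -2.24 in the deposited normalized table and by -2.03 without normalization. The difference from oocyte to 4-cell embryo was negative on every scale run, and missed the threshold without Hnrnpr (-0.49, adjusted p = 0.0553) and on sample medians (-0.33, adjusted p = 0.127).

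Ratios between members cancel the control genes. Each was tested among all 12090 pairs of genes, and only the change of a ratio between stages is read. The log2 ratio of Kdm5b to Kdm5c had a median of -3.76 over zygotes (-4.91 to -2.42) and of 2.17 over 2-cell embryos (1.27 to 4.72), with no overlap. It rose by 6.04 (adjusted p = 2.57e-24), and that of Kdm5a to Kdm5c by 8.49 (adjusted p = 2.95e-15), at a step at which 72.3% of pairs passed. The ratio of Kdm5a to Kdm5b rose by 2.46 ± 0.77 (SE, adjusted p = 0.00391), so Kdm5a changed more than Kdm5b. None of the 3 ratios passed from oocyte to zygote (1.58% of pairs did), to the 3-cell stage (0.976%), from there to the 4-cell stage (3.31%) or over both of these (23.3%). The rise of the Kdm5a to Kdm5b ratio was 2.21 (adjusted p = 0.121) in single cells alone, and had an adjusted p of 0.0549 when zygotes and 2-cell embryos alone were fitted. With whole embryos alone at the 2-cell stage it was 2.30 (adjusted p = 0.0745), and without the 2 undetected samples 1.65 ± 0.37 (SE, adjusted p = 0.000114).

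Between the 4-cell and 8-cell stages the Kdm5b to Kdm5c ratio fell by 1.91 ± 0.37 (SE, adjusted p = 3.11e-05, 47.2% of pairs called), from a median of 3.16 to 1.16. The Kdm5a to Kdm5c ratio differed by -1.85 (adjusted p = 0.0891, and 0.0016 without the 2 undetected samples). The Kdm5a to Kdm5b ratio differed by 0.06. Between the 8-cell and 16-cell stages, where 21.9% of pairs were called, the Kdm5b to Kdm5c ratio differed by -1.33 (adjusted p = 0.0698) and the Kdm5a to Kdm5c ratio by -2.001 (adjusted p = 0.306, and 0.0354 without the 2 undetected samples). From oocyte to late embryo the ratios to Kdm5c rose by 4.47 for Kdm5a (adjusted p = 2.54e-07) and 3.61 for Kdm5b (adjusted p = 8.17e-16), with 82.7% of pairs called, and the ratio of Kdm5a to Kdm5b differed by 0.85 (adjusted p = 0.305, and 0.00785 without the 2 undetected samples, where it was 1.08).

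**Figure D3:**
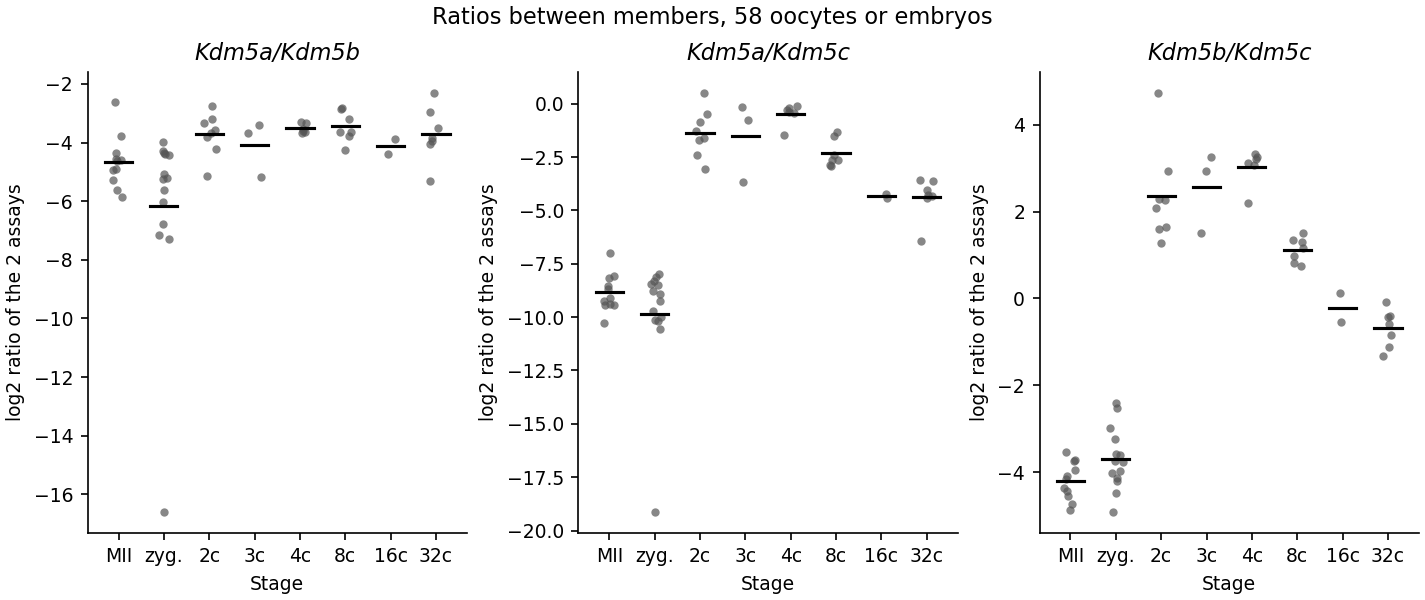
Log2 ratio of each pair of KDM5 genes (vertical axis) in each oocyte, zygote or embryo by stage (horizontal axis). The ratio of Kdm5b to Kdm5c has a median of -3.76 in zygotes, 2.17 in 2-cell embryos, 1.16 in 8-cell embryos and -0.59 in 32-cell embryos.

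Samples that held a whole oocyte, zygote or embryo in 1 reaction give the content without division by cell number or control genes, as 30 minus the Ct. There were 3 whole embryos at each of the 2-cell, 4-cell, 8-cell, 16-cell and 32-cell stages. Kdm5a content was 17.27, 17.23 and 15.07 at the 2-cell stage, 16.81, 16.73 and 16.87 at the 4-cell stage and 16.09, 15.85 and 16.28 at the 8-cell stage. It was 16.01, 17.17 and 17.16 at the 16-cell stage and 13.24, 14.27 and 15.30 at the 32-cell stage. The 8-cell embryos were thus below all 4-cell embryos and the 32-cell embryos below all 16-cell embryos.

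Kdm5b content was 21.09, 20.80 and 19.30 at the 2-cell stage, 20.14, 20.37 and 20.50 at the 4-cell stage and 19.86, 20.10 and 19.10 at the 8-cell stage. It was 20.56, 22.10 and 21.20 at the 16-cell stage and 16.90, 16.60 and 16.99 at the 32-cell stage, where all 3 embryos lay below every earlier embryo from the 2-cell stage on. Kdm5c content was 18.15, 18.50 and 14.57 at the 2-cell stage and 17.02, 17.10 and 17.16 at the 4-cell stage. The low 2-cell embryo 3 was also low in its control genes (13.94, against 16.31 and 16.19 in the other 2). Kdm5c content was 18.70, 18.75 and 17.80 at the 8-cell stage, 20.29, 21.91 and 21.85 at the 16-cell stage and 17.05, 18.27 and 18.22 at the 32-cell stage.

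From zygote to 2-cell embryo the content of Kdm5a rose by 7.68 (adjusted p = 9.44e-08) and that of Kdm5b by 5.38 (adjusted p = 3.10e-13), with 77.6% of all genes called, 17.9% higher and 59.6% lower, and a median of -1.79. Kdm5c content fell by 1.63 (adjusted p = 0.00110), close to that median, and differed by -0.38 (adjusted p = 0.328) without 2-cell embryo 3. From MII oocyte to zygote (2.56% of genes called), from 2-cell to 4-cell embryo (0.641%) and from 4-cell to 8-cell embryo (25.6%) no member passed. At the last of these Kdm5c differed by 1.32 (adjusted p = 0.0781), and by 1.63 without 8-cell embryo 3 (adjusted p = 0.0402).

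From 8-cell to 16-cell embryo 80.1% of genes were called in content, 79.5% higher, and the median gene moved by 2.79. Kdm5b rose by 1.60 (adjusted p = 0.00821) and Kdm5c by 2.93 (adjusted p = 1.63e-05), and Kdm5a differed by 0.71 (adjusted p = 0.642). From 16-cell to 32-cell embryo 65.4% of genes were called, 64.1% lower, with a median of -2.46. Kdm5b fell by 4.45 (adjusted p = 2.33e-08) and Kdm5c by 3.50 (adjusted p = 1.59e-06), and Kdm5a differed by -2.51 (adjusted p = 0.112). The rise of Kdm5b at the 16-cell stage was lost without 16-cell embryo 2 (1.19, adjusted p = 0.0732) or 8-cell embryo 3 (1.31, adjusted p = 0.0522). With 3 embryos against 3, an exact permutation test cannot go below 0.1. Since most genes moved the same way at each of these 2 steps, a change of RNA per embryo and a change of recovery cannot be told apart.

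**Figure D4:**
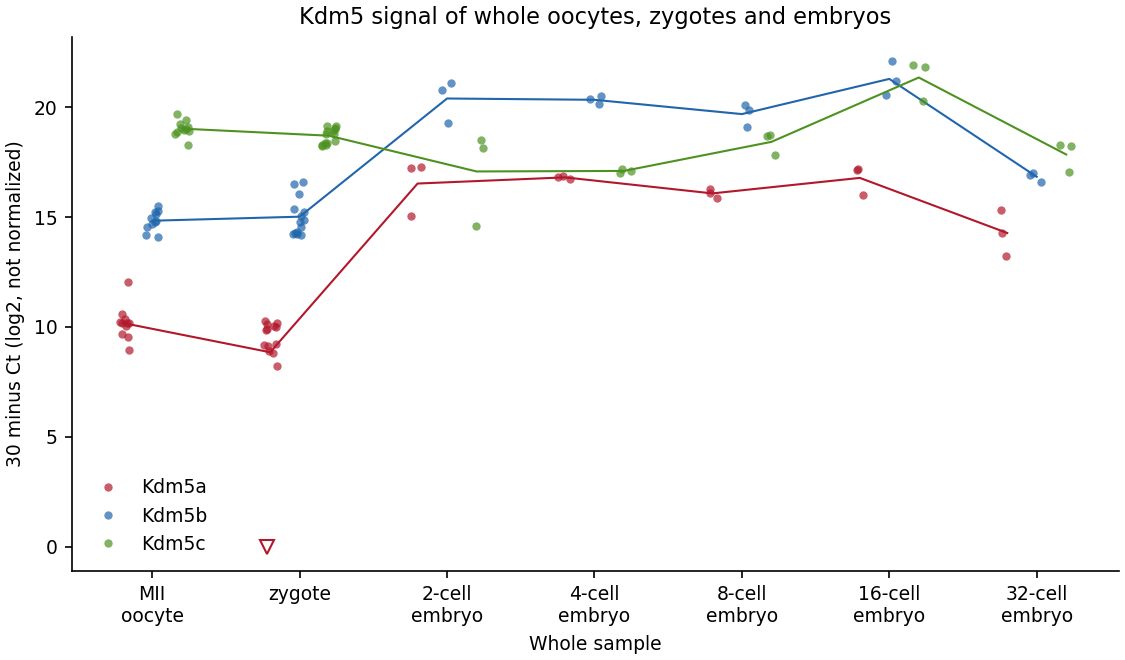
Content as 30 minus the Ct (vertical axis) of Kdm5a, Kdm5b and Kdm5c in single reactions of whole oocytes, zygotes and embryos (horizontal axis, stage), with a line through the stage means. Up to the 16-cell stage, 2-cell and later embryos hold Kdm5b at 19.10 to 22.10, and those of the 32-cell stage at 16.60 to 16.99.

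Within late embryos, blastomeres take on the identity of the inner cell mass (ICM) or the trophectoderm (TE), the outer layer that forms the placenta. A lineage score was formed for each of 76 samples of 9 embryos from the study's core genes, as the average of 12 for the ICM less the average of 8 for the TE. The study chose these genes on these samples, and none is a KDM5 gene. The slope of each gene on the score was taken within each embryo, and the embryo was the replicate.

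No KDM5 gene passed the test, and 0.641% of all genes did. That was 1 gene, Tspan8, itself a core TE gene of the score. The other core genes, from which the score is built, did not pass either. Missing the threshold here thus does not show that a gene is alike in both lineages. The mean slope was -0.09 for Kdm5a (95% interval -0.29 to 0.11, adjusted p = 0.584), 0.02 for Kdm5b (-0.06 to 0.09, adjusted p = 0.792) and -0.07 for Kdm5c (adjusted p = 0.584). Slopes of Kdm5a lay between -0.19 and 0.10 in 8 of 9 embryos and at -0.79 in the embryo that held the undetected blastomere. Slopes of Kdm5b lay between -0.16 and 0.08. Those of Kdm5c lay between -0.05 and 0.05 in 7 embryos, and at -0.38 and -0.27 in the other 2.

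In 3 of the 9 embryos the samples had lineage scores on 1 side of 0 only. In the other 6, a choice made after the slopes were seen, the slope of Kdm5b was positive in 6 of 6 embryos, with a mean of 0.06 per unit of score (adjusted p = 0.0351, limma), while 25% of all genes were called. Among the genes called in these 6 embryos were 20 core genes of the score. Kdm5a had a mean slope of 0.03 there (adjusted p = 0.297) and Kdm5c of 0.01 (adjusted p = 0.520). Centred on each embryo, Spearman's rho with the score over the 76 samples was 0.45 for Kdm5b, 0.15 for Kdm5a and 0.15 for Kdm5c. These are descriptions, since samples share embryos and control genes.

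**Figure D5:**
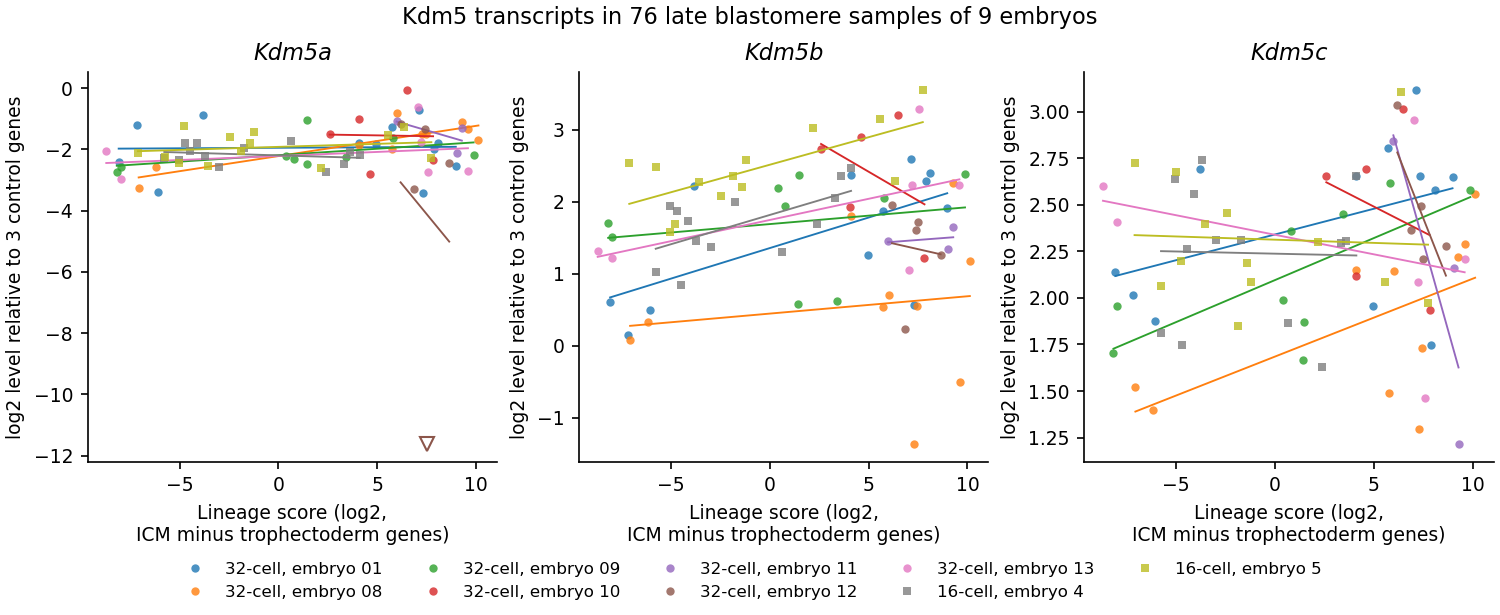
Normalized log2 level of each KDM5 gene (vertical axis) against the lineage score (horizontal axis, higher toward ICM genes) in 76 blastomere samples, squares for the 16-cell and circles for the 32-cell stage, with a least-squares line for each of 9 embryos. Slopes per unit of score lie between -0.16 and 0.08 for Kdm5b, and the lowest are -0.79 for Kdm5a and -0.38 for Kdm5c. Scores of the embryo with the highest Kdm5b slope run from -8.08 to 8.97. The steep line of Kdm5a is that of the embryo that holds the sample without a signal, at -11.62.

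At the 16-cell and 32-cell stages Kdm5c was among the genes that varied least between blastomeres of an embryo. The SD within embryos of the 16-cell stage was 0.36 for Kdm5c, smaller than in all but 5 of the 156 genes, 0.41 for Kdm5a and 0.52 for Kdm5b, with a median of 0.915 over all genes. Those 5 were Eed, Dppa3 and the 3 control genes, whose spread the normalization lowers. At the 32-cell stage it was 0.45 for Kdm5c, with 2 genes smaller, 0.84 for Kdm5b and 1.53 for Kdm5a, which was 0.81 without the undetected blastomere. The median gene had 1.34. At the 8-cell stage the SD was 0.31 for Kdm5b, 0.39 for Kdm5c and 0.62 for Kdm5a, against a median of 0.643. In 3 repeats of 200 pg of embryonic stem cell RNA the SD was 0.17 for Kdm5a, 0.14 for Kdm5b and 0.06 for Kdm5c.

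Within late embryos the members did not follow each other closely. Centred on each embryo, Spearman's rho over 76 samples was 0.05 between Kdm5a and Kdm5b, 0.29 between Kdm5a and Kdm5c and 0.24 between Kdm5b and Kdm5c. The values share the control genes, whose mean had rho of -0.12, -0.20 and -0.23 with Kdm5a, Kdm5b and Kdm5c.

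Across the 58 oocytes, zygotes and embryos, the genes most like Kdm5a were Kdm3a, an H3K9 demethylase (Pearson's r = 0.901), the histone deacetylase Hdac1 (0.892) and Tead4, a transcription factor needed for the trophectoderm (0.892). Kdm5b was at rank 5 (0.889). The genes most like Kdm5b were Hdac1 (0.958), Kdm3a (0.938) and Prdm10, a zinc finger protein of the PR domain family (0.924). For Kdm5c the highest values were lower, with the histone acetyltransferase Hat1 (0.527) and the DNA methyltransferase Dnmt3b (0.510) among them. Its r was -0.157 with Kdm5a and -0.209 with Kdm5b. The points share stage and control genes, and these values describe likeness across stages only.

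Genes with related functions were counted at the steps at which a KDM5 gene passed. Of 10 H3K4 methyltransferase genes and their cofactors, 2 rose and 4 fell from the zygote to the 2-cell stage (median -0.42, against -0.33 over all genes, of which 29.5% rose and 39.1% fell). The risers were Setd7, an H3K4 monomethyltransferase (3.54, adjusted p = 0.0254), and Mll3, an enhancer methyltransferase (2.09, adjusted p = 0.00166). Of 4 other H3K4 demethylase genes, 1 rose and 3 fell (median -1.32). The riser was 2410016O06Rik, a JmjC oxygenase also called NO66 (10.53, adjusted p = 6.49e-09), and Kdm2b, an H3K36 and H3K4 demethylase, fell by 2.32 (adjusted p = 1.09e-12). Of 17 other JmjC genes, 5 rose and 8 fell (median -0.47), with Kdm4c, an H3K9 demethylase, up by 8.62 (adjusted p = 3.30e-16) and Jmjd8 at -7.74 (adjusted p = 3.65e-14).

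Between the 4-cell and 8-cell stages, where Kdm5b fell, 1 of the 10 H3K4 methyltransferase genes rose and 3 fell (median -0.48, against -0.51 over all genes, of which 13.5% rose and 35.9% fell). Mll1 fell by 3.39 (adjusted p = 0.0294) and Mll2 by 2.48 (adjusted p = 2.84e-11), both large promoter methyltransferases. None of the 4 other demethylase genes rose and 1 fell, Kdm1b, which acts in the growing oocyte (-2.02, adjusted p = 1.16e-05). Of the 17 JmjC genes 1 rose, Jmjd8 (3.13, adjusted p = 0.00264), and 8 fell, with the H3K9 demethylase Kdm4b at -3.09 (adjusted p = 7.05e-08). Over the longer span between the 2-cell and 8-cell stages, 1 methyltransferase gene rose and 5 fell, 2 demethylase genes rose and 1 fell, and 2 JmjC genes rose and 10 fell (medians -1.52, 0.72 and -0.88, against -0.85 over all genes, of which 16% rose and 47.4% fell). The 2 most changed of each list were Mll1 (-5.98) and Mll2 (-3.33), Kdm1b (-2.87) and Kdm2b (0.79), and Jhdm1d (-2.48) and the H3K9 demethylase Phf2 (-3.96).

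From oocyte to late embryo, 3 of the 10 methyltransferase genes rose and 5 fell, 1 of the 4 demethylase genes rose and 2 fell, and 5 of the 17 JmjC genes rose and 11 fell. Their medians were -0.43, -1.0 and -1.59, against -0.35 over all genes, of which 37.8% rose and 46.8% fell. Mll1 (5.61), Setd7 (3.28), 2410016O06Rik (10.52) and Kdm4c (4.41) were higher. Kdm1b (-7.41, adjusted p = 2.93e-28) and the H3K9 and H3K27 demethylase Jhdm1d (-5.11, adjusted p = 5.37e-30) were lower. Falls outnumbered rises over all genes too in each of these 4 comparisons, so nothing is read from the counts of the lists. Kdm2b stands in both the demethylase and the JmjC list. Setd7 and, at the 4-cell and 8-cell stages, Jmjd8 had mean levels below -10 on both sides of their comparisons, where values rest largely on samples without a signal. On 1 side this also held for 2410016O06Rik in oocytes (-13.37) and zygotes (-13.44), Jmjd8 at the 2-cell stage (-12.36), and Mll1 (-12.90) and Phf2 (-10.38) at the 8-cell stage, so their differences were sized by the Ct assigned where no signal was seen.

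Jarid2, a relative with a JmjC domain that has lost the catalytic activity and that belongs to Polycomb complexes, took another course. Its mean level was 0.53 in MII oocytes, 0.04 in zygotes and -1.65 at the 2-cell stage, where it fell by 1.69 ± 0.25 (SE, adjusted p = 2.97e-08) while Kdm5a and Kdm5b rose. It was at -2.41 at the 4-cell stage and rose to -0.62 at the 8-cell stage (adjusted p = 2.60e-06), where Kdm5b fell, and to 1.60 at the 16-cell stage (adjusted p = 0.000134).

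Kdm5d, the Y-linked member of the family, was not detected in 134 of 168 samples. It was undetected in 10 of 11 oocytes, 14 of 14 zygotes, 16 of 21 samples of the 2-cell stage, 3 of 7 of the 3-cell and 2 of 12 of the 4-cell stage. At the 8-cell stage it was undetected in 24 of 27 samples, at the 16-cell stage in 26 of 26 and at the 32-cell stage in 39 of 50. Embryo means of Kdm5d at the 32-cell stage were -0.15 and -0.43 in 2 of 7 embryos and between -13.10 and -12.27 in the other 5, so that it was present in some embryos and without a signal in others. Kdm5a was undetected in 2 of the 168 samples, and Kdm5b and Kdm5c in 0. A Ct that was not reached is no count of molecules, and a signal below the assay's limit cannot be told apart from none.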

How the data were processed

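The authors deposited a table of Ct values (a score in PCR cycles, with 30 for genes not detected) of 192 assays in 189 samples, made on the Fluidigm BioMark after reverse transcription and targeted preamplification, and a table of log2 values that the authors normalized to Gapdh, Hspa8 and Lmnb1. The Ct table was used, with the log2 table as an alternative. Each sample's 30 minus Ct was normalized to Hnrnpr, Ssu72 and Ube2e1, the control genes named in the study's methods, for the 156 assays that the study retained. Of the samples, 168 entered the stage comparisons, and 3 that the study left out did not. Blastomeres were averaged per embryo. limma 3.58.1 in R 4.3.3 fitted all 8 stages together, also over 12090 gene pairs, over slopes on the lineage score in 9 embryos and over raw content. Tests were checked on simulated data. Python 3.11.15, numpy 2.4.6, pandas 2.3.3, scipy 1.17.1 and matplotlib 3.10.9 served for the rest. Genes named are the members, Kdm5d and Jarid2, the 3 genes most like each member (1 of them is not reported here), and the 2 most changed genes of each related list at steps where a member passed. The members and lists were chosen with earlier results of these data known. The 2-cell to 8-cell comparison and the settings that leave out undetected samples, whole embryos, other 2-cell samples or embryos with scores on 1 side of 0 were added after seeing the data. Promoters and loci are from RefSeq, with GRCm38.p6 coordinates. The number of embryos limits the precision, as the Ct gives no count of molecules. Alternatives changed the normalization, control genes, floor for undetected genes, samples, replicate unit and test.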

Additional observations from a re-analysis of the deposited data

Results flagged for a closer look

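Of 27 groups of 4 to 10 values (the embryo means, ratios and slopes of the 3 genes), 6 had an end value separated from the rest by more than Dixon's 95% critical value, which chance alone gives in about 1 of 20 groups. At the 32-cell stage 1 of 7 embryos had a mean Kdm5a level of -3.97, with the next at -2.16. This embryo held the blastomere without a Kdm5a signal. The same embryo had the lowest log2 ratio of Kdm5a to Kdm5c (-6.44, with the next at -4.44) and the lowest slope of Kdm5a on the lineage score (-0.79, with the next at -0.19). At the 8-cell stage 1 of 7 embryos had a mean Kdm5c level of 0.57, with the next at 1.29. At the 4-cell stage 1 of 6 embryos had the lowest log2 ratio of Kdm5a to Kdm5c (-1.47, with the next at -0.45), and the same embryo the lowest ratio of Kdm5b to Kdm5c (2.20, with the next at 3.07).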

How the results depend on the processing

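Over all alternatives, 452 of 498 values of the stage differences kept their side of the threshold with no called value turning sign, 6 lost significance, 35 gained it and 5 reversed. The same held for 192 of 207 ratio values, 62 of 63 slope values and 153 of 171 content values. Among those counted as kept, 46, 11, 10 and 9 values changed sign with neither value past the test. Kdm5a and Kdm5b rose from the zygote to the 2-cell stage in every setting run. A number shared by samples does not pair them here: over 411 same-numbered pairs the median correlation of deviations was -0.00504 (-0.442 to 0.519), so the fit with every sample as a replicate and the number as a replicate block shares only a number. That fit has no term for the embryo and counts blastomeres of 1 embryo as independent, so its calls are not tests between embryos. Under this replicate block Kdm5c passed at -0.76 from the 3-cell to the 4-cell and -0.53 between the 2-cell and 4-cell stages, Kdm5a at -1.86 from the 4-cell to the 8-cell, -1.10 from the 2-cell to the 8-cell and -1.04 between the 8-cell and 16-cell stages, Kdm5c there at 0.80, and Kdm5b at -0.87 between the 16-cell and 32-cell stages. With the embryo as a random block Kdm5a passed at -1.72 between the 4-cell and 8-cell stages and Kdm5c at 0.80 between the 8-cell and 16-cell stages, as did the ratios Kdm5b to Kdm5c between the 2-cell and 4-cell stages (0.98) and between the 8-cell and 16-cell stages (-1.21), and Kdm5a to Kdm5c at -1.97 and -1.88 at the 2 steps after the 4-cell stage. With a floor of -10, with only the groups compared or without the undetected samples, Kdm5a passed between the 4-cell and 8-cell stages at -1.65, as it did in the permutation test, and its ratio to Kdm5c at -1.85 there and -2.001 at the next step. Without the undetected samples Kdm5a also passed at -0.95 between the 2-cell and 8-cell stages and its ratio to Kdm5b at 1.08 from oocyte to late embryo. With only the groups compared, the Kdm5b to Kdm5c ratio passed at -1.33 between the 8-cell and 16-cell stages, Kdm5c at 0.31 from oocyte to late embryo, and content at -0.73 (Kdm5a) and 1.32 (Kdm5c) between the 4-cell and 8-cell stages and at -2.51 (Kdm5a) between the 16-cell and 32-cell stages, the last also without the undetected zygote. The Kdm5a to Kdm5b ratio at the 2-cell stage lost significance at 2.46 there and at 2.21 in single cells, and at 2.30 with whole embryos alone at the 2-cell stage. Without whole embryos Kdm5b passed at 1.17 and 1.03 from the 2-cell to the 3-cell and 4-cell stages and missed at -0.73 between the 2-cell and 8-cell stages. Between the 4-cell and 32-cell stages Kdm5c reversed to -2.24 in the authors' normalized table and -2.03 without normalization. In the authors' normalized table Kdm5c was at -0.64 at the 2-cell stage, Kdm5a, Kdm5b and Kdm5c at -3.06, -2.39 and -1.06 (reversed) between the 8-cell and 16-cell stages, Kdm5b and Kdm5c at -1.67 and -1.19 between the 16-cell and 32-cell stages, and the 3 genes at 1.22, 0.36 and -3.25 (reversed) from oocyte to late embryo. Without normalization Kdm5c was at -3.19 at the 2-cell stage, Kdm5b at 1.79 from the 2-cell to the 4-cell and -1.39 between the 4-cell and 8-cell stages, both at -2.48 (Kdm5b) and -1.998 (Kdm5c) between the 16-cell and 32-cell stages, Kdm5b at 0.39 (reversed) and Kdm5c at 1.63 between the 2-cell and 8-cell stages, and the 3 genes at 0.48, -0.38 (reversed) and -3.99 (reversed) from oocyte to late embryo. Normalized to sample medians, Kdm5c passed at 0.69 from the 4-cell to the 8-cell, 0.65 between the 2-cell and 8-cell stages and 0.57 from oocyte to late embryo, and Kdm5b missed at -0.58 between the 2-cell and 8-cell stages. Kdm5c passed at -0.70 at the 2-cell stage without Ube2e1, and from oocyte to late embryo at 0.79 without Ssu72, 0.45 with all mapped samples and 0.31 in the permutation test. That test, unadjusted, also passed Kdm5c at -0.31 from oocyte to zygote, and the contents of Kdm5a (-1.33) and Kdm5c (-0.32) there. It cannot pass 3 embryos against 3, as for content of Kdm5b (1.60 and -4.45) and Kdm5c (2.93 and -3.50) from the 8-cell to the 16-cell and on to the 32-cell stage. Relative to the control genes, content of Kdm5c moved by -0.038 at the 2-cell stage and 0.51 at the 16-cell stage, and that of Kdm5b by -1.61 at the 8-cell stage and -0.81 (reversed) at the 16-cell stage. Leaving out 1 embryo at a time, content differences ran from -2.34 to -0.38 for Kdm5c at the 2-cell stage, from 1.16 to 1.63 for Kdm5c at the 8-cell stage and from 1.19 to 1.97 for Kdm5b at the 16-cell stage. The slope of Kdm5b passed at 0.058 in embryos with scores on both sides of 0. Counts of genes called ranged from 0 to 21 (3 as reported) from oocyte to zygote, from 0 to 38 (14) and 0 to 21 (6) at the 2 steps to the 4-cell stage, from 6 to 66 (51) from the 2-cell to the 4-cell, 42 to 84 (77) from the 4-cell to the 8-cell, 16 to 85 (44) from the 8-cell to the 16-cell and 6 to 65 (17) between the 16-cell and 32-cell stages, and from 0 to 39 (1) for slopes. The cause of these changes was not tested. Late blastomeres had the highest Ct of the control genes, which limits what their single values show.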

Other observations

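Single samples outside the stage comparisons gave these normalized log2 levels, with no test. In isolated ICM, Kdm5a was at -2.57, Kdm5b at 1.42 and Kdm5c at 1.16, and in isolated TE at -3.10, -0.03 and 0.68. The 3 whole 16-cell embryos had Kdm5a at -2.15, -2.67 and -2.60, Kdm5b at 2.40, 2.25 and 1.44 and Kdm5c at 2.13, 2.07 and 2.09, within the range of the blastomere samples of that stage for each gene. The 3 whole 32-cell embryos had Kdm5a at -3.25, -3.26 and -2.73, Kdm5b at 0.41, -0.94 and -1.04 and Kdm5c at 0.56, 0.73 and 0.19, and Kdm5c was thus below all 50 blastomere samples of the 32-cell stage, the lowest of which was at 1.22. Of the 3 samples that the study left out, an MII oocyte had Kdm5a, Kdm5b and Kdm5c at -6.20, -1.87 and 1.27, and a blastomere of a 32-cell embryo at 1.82, 1.89 and 3.68. The other 32-cell blastomere had no Kdm5a signal (-7.34), Kdm5b at 4.42 and Kdm5c at 5.32. In the 3 repeats of 200 pg of embryonic stem cell RNA the means were -1.09, 3.43 and 2.68.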
